A study of Rattus norvegicus with 16 samples.

Results

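The Period and cryptochrome genes, Per1, Per2, Per3, Cry1 and Cry2, were followed in the gustatory cortex of rats that had drunk either water or a taste unfamiliar to them. The members were chosen by name, as every probe set that the array annotation pairs with one of these 5 gene symbols. Each gene had 1 such probe set, which gave 5 of the 15209 probe sets paired with a single gene, out of 28826 on the array. All 5 genes were measured. Of these genes Per1 was higher at 1 h than at 3 h after drinking, 1.64-fold over both tastes. None of the other 4 passed the test over time, which 1.01% of the 15209 probe sets passed over both tastes. No member passed the test between saccharin and water, and neither did any other of the 15209 probe sets.

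These genes form the negative limb of the circadian clock. The transcription factors CLOCK and BMAL1 bind E-box elements and switch on the Per and Cry genes, and the PER and CRY proteins then build up, enter the nucleus and repress CLOCK and BMAL1, which closes a loop of about a day. Per1 and Per2 also carry an acute input, since their transcription is raised within an hour or so by light in the suprachiasmatic nucleus, the brain's central pacemaker, and by neuronal activity, cyclic AMP signalling and glucocorticoids in other tissues. Per3 and the Cry genes are best known for their slow daily rhythm.

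The rats were male Wistar Hola animals, labelled as 2 months old, and the study's methods give an older range. All had been placed on water restriction for 3 days and trained to take their daily water from pipettes in a short session. On the test day they drank water, the familiar taste, or 0.1% saccharin, which was unfamiliar, and the gustatory cortex, which lies in the insular cortex, was taken 1 h or 3 h after the end of drinking. There were 4 groups of 4 arrays (saccharin and water, each at 1 h and at 3 h), each array from its own rat, and no array of rats without fluid was analysed here. The rats lived under a cycle of light and dark and all experiments were run in the light phase. No source used here gives the clock time at which tissue was taken, so a difference between 1 h and 3 h after drinking cannot be told apart from a difference in time of day. The arrays numbered C365 to C372 were all 3 h and C373 to C380 were all 1 h, so the order of the numbers cannot be told apart from time either.

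Values are on the log2 scale of the deposited array data, where 1 unit is a 2-fold difference, and changes over time are given as 1 h minus 3 h. They were tested with limma, with p-values adjusted over all 15209 probe sets (Benjamini-Hochberg) and calls made at an adjusted p under 0.05. The 16 arrays had medians of 5.08 to 5.17 and correlations between arrays of 0.995 to 0.997. The authors had quantile normalized the signals over all arrays, which brings medians close, so these values say little about array quality. Neuronal markers had array means of 10.2 to 10.3, and 0 of 8 differed over time at an unadjusted p under 0.05. All 14 markers of leptomeninges and fibroblasts were higher at 1 h (median difference 0.29), 0 of them past the adjusted threshold. At an unadjusted p under 0.05, 11 of the 14 were higher, where 6.25% of all tested probe sets were. The mean of these 14 on each array was 6.46 to 6.72 in saccharin 1 h, 5.87 to 6.55 in saccharin 3 h, 6.38 to 6.69 in water 1 h and 6.12 to 6.52 in water 3 h. Since these markers moved with time, the differences over time of the 5 members and of the called clock partners were also fitted with that mean as a covariate. Of the 6 measured markers of the suprachiasmatic nucleus, Lhx1 had group means of 3.83 to 3.86, Six6 of 4.09 to 4.21 and Avp of 4.69 to 4.83, against a median of 6.15 over all tested probe sets. Prokr2 (5.69 to 6.02), Rgs16 (5.74 to 5.89) and Vip (6.21 to 6.34), the last of which cortical interneurons also express, lay nearer that median. Over time 0 of the 6 were called. Before adjustment 1 passed as lower at 1 h (Prokr2, -0.27), where 5.77% of all tested probe sets did. In bulk tissue, fewer cells of a type and less RNA per cell cannot be told apart.

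The sequence around the start of transcription is shown for Per1 and Per2, because the levels of these 2 genes were correlated among the rats of a group. With each array left out in turn, that correlation passed the adjusted threshold in 9 of 16 cases. RefSeq promoter sequences (build GRCr8, 250 bases before to 50 bases after the annotated start) were matched for 4 of the 5 genes, Per1, Per2, Per3 and Cry2. Both strands were searched for the E-box CACGTG, the noncanonical E-box CACGTT, the cyclic AMP response element (CRE) TGACGTCA, its half-site TGACG, which lies within the full element, and the D-box TTATGTAA. The window of Per1 is on chromosome 10, 54304126 to 54304425, on the plus strand, and that of Per2 is on chromosome 9, 99496944 to 99497243, on the minus strand. Capitals mark the matches.
Per1: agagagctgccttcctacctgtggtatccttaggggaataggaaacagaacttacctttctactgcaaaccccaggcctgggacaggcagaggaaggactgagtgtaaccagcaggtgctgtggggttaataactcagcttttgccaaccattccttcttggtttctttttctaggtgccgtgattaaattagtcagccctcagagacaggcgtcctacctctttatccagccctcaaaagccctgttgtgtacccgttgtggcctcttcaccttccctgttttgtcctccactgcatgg
Per2: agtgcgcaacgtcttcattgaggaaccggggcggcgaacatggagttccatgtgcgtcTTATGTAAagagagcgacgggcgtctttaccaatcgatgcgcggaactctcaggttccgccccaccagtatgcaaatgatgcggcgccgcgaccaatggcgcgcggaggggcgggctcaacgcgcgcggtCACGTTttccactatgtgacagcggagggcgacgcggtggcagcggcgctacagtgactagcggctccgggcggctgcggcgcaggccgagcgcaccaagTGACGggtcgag
The Per2 window held a D-box whose first base is at position -192 from the start, a noncanonical E-box at -62 and a CRE half-site at 39. Over all 33469 promoter windows of the same length, 0.893% held a D-box, 4.83% the noncanonical E-box and 21.2% the CRE half-site. None of the 5 motifs was found in the Per1 window, and 6.42% of all windows held the E-box and 1.83% the full CRE. The windows also differed in base composition, with 50.3% G and C and 3 CG dinucleotides in Per1, and 64.7% and 41 in Per2, against a median of 51.7% G and C over all windows. In the windows of Per3 and Cry2, 1 match each was found, both on the opposite strand, a CRE half-site (read as CGTCA) in Per3 and a noncanonical E-box (read as AACGTG) in Cry2. These matches describe the letters of a single window per gene and are not evidence of binding. Sequence outside the windows, or at any other start of the same gene, was not searched. The lack of a match in the Per1 window therefore does not show that Per1 lacks these motifs.

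Per1 encodes a period protein whose gene responds quickly to acute stimuli in many tissues. In saccharin 1 h its level was 7.06, 7.06, 7.06 and 7.26, and in saccharin 3 h it was 6.12, 6.38, 6.21 and 6.42. In water 1 h it was 6.79, 7.21, 6.93 and 7.13, and in water 3 h it was 6.77, 6.24, 6.35 and 6.29. The 1 h and 3 h arrays did not overlap within either taste, and over both tastes the lowest 1 h array (water, C373, 6.79) still lay above the highest 3 h array (water, C365, 6.77). Ordered by mean, Per1 stood at 7.11 ± 0.10 (SD, n = 4) in saccharin 1 h, 7.01 ± 0.19 in water 1 h, 6.41 ± 0.24 in water 3 h and 6.28 ± 0.14 in saccharin 3 h. Neighbours at the same time point differed by less than their spread, and the step in this order fell between the times.

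Averaged over both tastes, Per1 was 0.71 higher at 1 h than at 3 h on the log2 scale (SE 0.08, 95% interval 0.55 to 0.87, limma adjusted p = 4.56e-05), which placed it 12th by p-value among all tested probe sets. This difference was 0.83 after saccharin (1.77-fold, SE 0.11, interval 0.60 to 1.06, adjusted p = 0.000859) and 0.60 after water (1.51-fold, SE 0.11, interval 0.37 to 0.83, adjusted p = 0.0311). Exact permutation tests of 4 against 4 arrays gave p = 0.02857 for each taste, the smallest value that this design allows, and p = 0.0004082 over both tastes with labels exchanged within taste, again the smallest possible. With the leptomeningeal marker mean as a covariate the difference was 0.77 over both tastes (adjusted p = 0.00128), 0.90 after saccharin (0.00843) and 0.64 after water (0.0461). The calls after saccharin and over both tastes held in every alternative that was run. The call after water was lost in 10 of 26 alternatives. Among these, leaving out array C367, C369, C371, C374, C376 or C378 gave an adjusted p of 0.0744 to 0.159, with differences of 0.53 to 0.63.

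The share of all tested probe sets that passed the same thresholds sets the background for this 1 gene in 5. Over both tastes 1.01% were called, 0.723% higher at 1 h and 0.283% lower. After saccharin 0.348% were called and after water 0.125%. Non-overlapping arrays were found for 0.434% of probe sets over both tastes, 4.78% after saccharin and 4.35% after water. The study's own cut-off, which asks for p of 0.05 or less (taken here without adjustment, as its basis is not stated with it) and a change of 1.25-fold or more, was met by 0.750% after saccharin and 0.572% after water, and among the members again by Per1 alone in each taste.

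**Figure D1:**
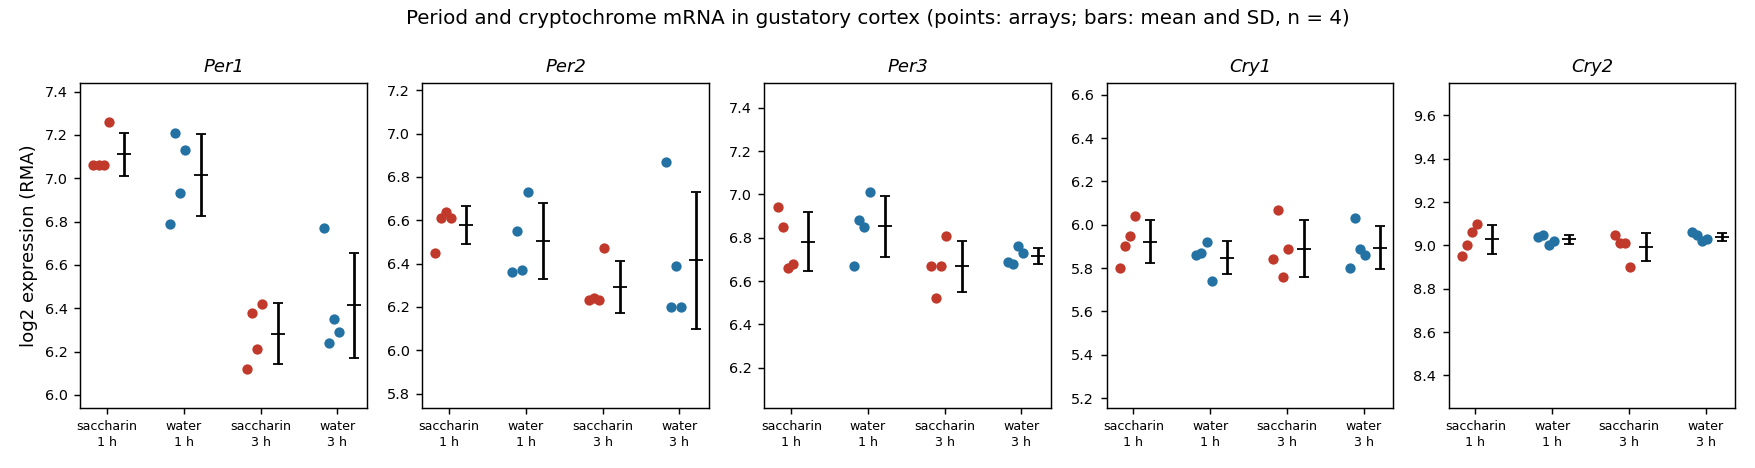
Log2 level (vertical axis) of each of the 5 genes in the 4 groups, with 1 point per array and the mean ± SD of 4 arrays. The 1 h and 3 h arrays of Per1 do not overlap (lowest 1 h array 6.79, highest 3 h array 6.77), whereas those of the other 4 genes do.

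Per2, the close relative of Per1, shares its induction by acute signals in other settings. Its level was 6.45, 6.61, 6.64 and 6.61 in saccharin 1 h and 6.23, 6.24, 6.23 and 6.47 in saccharin 3 h. In the water groups it was 6.36, 6.55, 6.37 and 6.73 at 1 h and 6.87, 6.20, 6.39 and 6.20 at 3 h. The arrays of 1 h and 3 h overlapped in both tastes. After saccharin the overlap rested on 1 array of each time, C375 at 6.45 and C372 at 6.47, and in the water groups the 3 h array C365 at 6.87 was the highest of all 16. The means were 6.58 ± 0.09 (SD, n = 4) in saccharin 1 h, 6.50 ± 0.17 in water 1 h, 6.42 ± 0.32 in water 3 h and 6.30 ± 0.12 in saccharin 3 h. This is the same order of groups as for Per1, but each step was smaller than the larger SD of its neighbours.

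The difference of Per2 over both tastes was 0.19 (SE 0.08, interval 0.01 to 0.36), with an unadjusted p = 0.0411 and a limma adjusted p = 0.386, which did not pass. It was 0.28 after saccharin (1.22-fold, interval 0.03 to 0.53, adjusted p = 0.562) and 0.09 after water (interval -0.16 to 0.34, adjusted p = 0.925). Exact permutation tests gave p = 0.05714 after saccharin, 0.6286 after water and 0.07224 over both. Without array C365 the difference was 0.26 over both tastes (adjusted p = 0.0541) and 0.24 after water, and with the marker covariate it was 0.32 over both tastes (adjusted p = 0.337). Before adjustment p was under 0.05 for 6.25% of all tested probe sets as higher and 5.77% as lower over both tastes, 7.98% in the saccharin groups and 7.23% in the water groups in either direction, so that this level of evidence is common in these data.

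Per3, a period gene that is largely dispensable for the daily rhythm itself in mice, differed little between groups. Its level was 6.94, 6.85, 6.66 and 6.68 in saccharin 1 h, 6.67, 6.52, 6.67 and 6.81 in saccharin 3 h, 6.67, 6.88, 6.85 and 7.01 in water 1 h, and 6.69, 6.68, 6.76 and 6.73 in water 3 h. All groups overlapped. The means were 6.85 ± 0.14 in water 1 h, 6.78 ± 0.13 in saccharin 1 h, 6.71 ± 0.04 in water 3 h and 6.67 ± 0.12 in saccharin 3 h (SD, n = 4), and no neighbouring pair differed beyond its spread. The difference over both tastes was 0.13 (interval 0.01 to 0.24, unadjusted p = 0.0311, limma adjusted p = 0.343), and the exact permutation test gave p = 0.04531. Per taste it was 0.11 after saccharin (interval -0.04 to 0.27, adjusted p = 0.765) and 0.14 after water (interval -0.02 to 0.29, adjusted p = 0.735).

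Cry1 and Cry2 encode the flavin-binding partners that carry most of the repression of CLOCK and BMAL1. Cry1 was 5.80, 5.90, 5.95 and 6.04 in saccharin 1 h, 5.84, 6.07, 5.76 and 5.89 in saccharin 3 h, 5.86, 5.87, 5.92 and 5.74 in water 1 h, and 5.80, 6.03, 5.89 and 5.86 in water 3 h. The 4 group means lay within 5.85 to 5.92, less than the spread of the arrays inside any group. Its difference over both tastes was -0.01 (interval -0.11 to 0.10, limma adjusted p = 0.971), with 0.03 after saccharin (interval -0.11 to 0.18) and -0.05 after water (interval -0.19 to 0.10).

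Cry2 was 8.95, 9.00, 9.06 and 9.10 in saccharin 1 h, 9.05, 9.01, 9.01 and 8.90 in saccharin 3 h, 9.04, 9.05, 9.00 and 9.02 in water 1 h, and 9.06, 9.05, 9.02 and 9.03 in water 3 h. All 16 arrays fell between 8.90 and 9.10. The difference over both tastes was 0.01 (interval -0.06 to 0.08, limma adjusted p = 0.944), with 0.04 after saccharin (interval -0.06 to 0.13) and -0.01 after water (interval -0.11 to 0.08). The intervals of both Cry genes over both tastes lay below the whole interval of Per1.

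The genes also differed in how far rats of the same group stood apart. The SD within groups was 0.18 for Per1 and 0.19 for Per2, at percentiles 95.8 and 97.3 of all tested probe sets. It was 0.11 for Per3 (percentile 72) and 0.10 for Cry1 (percentile 60.9). For Cry2 it was 0.05, at percentile 5.19, so Cry2 was among the least variable probe sets of the array and Per1 and Per2 among the most variable. The mean level of Cry2 was at percentile 91.7, and those of the other 4 genes were at percentiles 46.5 to 59.2.

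**Figure D2:**
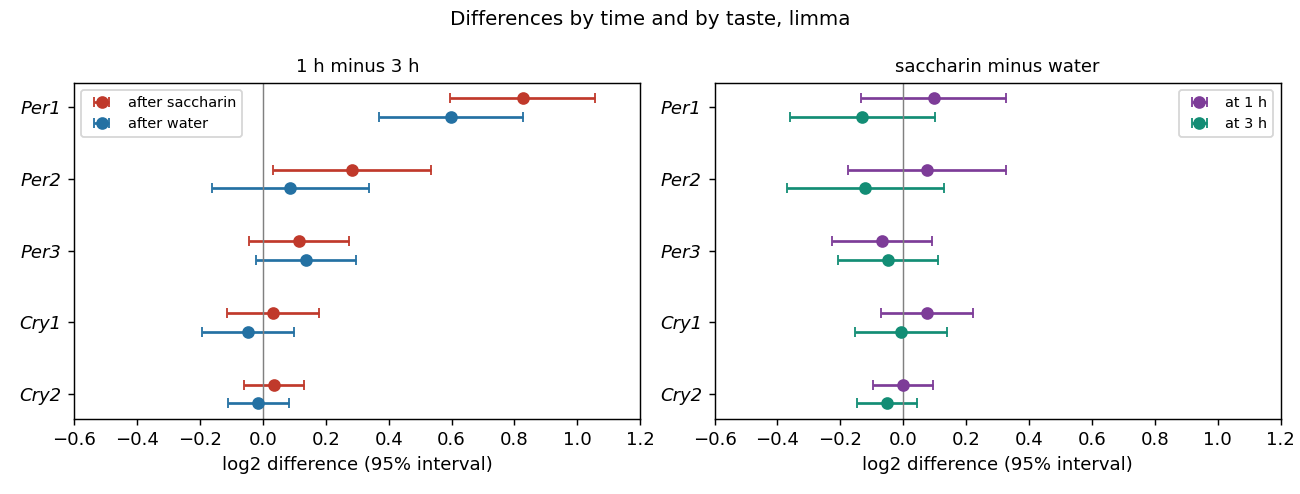
Log2 difference with its 95% limma interval for each gene, with 1 h minus 3 h on the left (after saccharin and after water) and saccharin minus water on the right (at 1 h and at 3 h). Both intervals of Per1 over time lie above 0, between 0.37 and 1.06, and every interval by taste includes 0.

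The changes of the members were also set side by side on the same arrays, as a description with no test, since Per1 was singled out for its change. Over both tastes the change of Per1 exceeded that of Per2 by 0.53 on the log2 scale, that of Per3 by 0.59, that of Cry1 by 0.72 and that of Cry2 by 0.70. The last 2 values are close to the change of Per1 itself, as the differences of Cry1 and Cry2 were -0.01 and 0.01. The difference between Per1 and Per2 was larger on all 8 of the 1 h arrays than on any 3 h array. This also held on 8 of the 1 h arrays for Cry2, but on 7 for Per3 and on 7 for Cry1. Such a count was not made for other probe sets, so no share over the array stands beside it. Per1 alone already separated the 1 h from the 3 h arrays, so these counts partly restate its own change.

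The study's second question was whether it matters that a taste is unfamiliar. On these arrays the unfamiliar taste was always saccharin and the familiar one always water, so familiarity cannot be told apart from the fluid drunk. For Per1, saccharin minus water was 0.10 at 1 h (interval -0.13 to 0.33) and -0.13 at 3 h (interval -0.36 to 0.10), with exact permutation p = 0.4857 and 0.4571. Per2 gave 0.08 (interval -0.17 to 0.33) and -0.12 (interval -0.37 to 0.13) at these times, Per3 gave -0.07 (interval -0.23 to 0.09) and -0.05 (interval -0.21 to 0.11), and Cry1 gave 0.07 (interval -0.07 to 0.22) and -0.01 (interval -0.15 to 0.14). For Cry2 the difference rounded to 0 at 1 h (interval -0.10 to 0.10) and was -0.05 at 3 h (interval -0.15 to 0.04). The saccharin and water arrays of every member overlapped at both times. No limma adjusted p of a member was below 0.999, and 0 members had an unadjusted p under 0.05.

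The background for these comparisons was itself low. Of all tested probe sets, 0% were called between the tastes at 1 h, 0% at 3 h, 0% with both times averaged and 0% for the interaction of taste and time. Non-overlapping arrays were found for 1.50% at 1 h and 1.91% at 3 h, and an unadjusted p under 0.05 for 3.06% and 3.37%. The change of Per1 over time was 0.23 larger after saccharin than after water (SE 0.15, interval -0.10 to 0.55, limma adjusted p = 1), so the 2 changes of Per1 were not shown to differ. The same term was 0.20 for Per2 (interval -0.16 to 0.55), -0.02 for Per3 (interval -0.25 to 0.20), 0.08 for Cry1 (interval -0.13 to 0.29) and 0.05 for Cry2 (interval -0.08 to 0.19).

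Within groups Per1 and Per2 varied together from rat to rat. After the mean of its own group was subtracted from each array, Pearson's r between the 2 genes was 0.84 over 16 arrays (permutation within groups, p = 0.00328, adjusted over the 10 gene pairs p = 0.0328) and Spearman's rho was 0.87 (permutation p = 0.001, adjusted p = 0.01). Array C365, a water 3 h rat, was high for both genes, at 6.77 and 6.87. Without the 2 arrays farthest from the median of Per1 (C365 and C374), and with deviations taken anew, r was 0.72 over 14 arrays (permutation p = 0.01919, adjusted p = 0.1133). With each array left out in turn r ran from 0.69, without C365, to 0.88, and the adjusted p from 0.0129 to 0.105, past the threshold in 9 of 16 cases and not without C365, C367, C369, C371, C372, C373 or C376. At 3 h alone r was 0.92 over 8 arrays, which include C365 (exact permutation p = 0.001736, the smallest value possible). At 1 h it was 0.68 (exact permutation p = 0.1892). These 2 p-values are not adjusted, and whether r differs between the times was not tested.

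**Figure D3:**
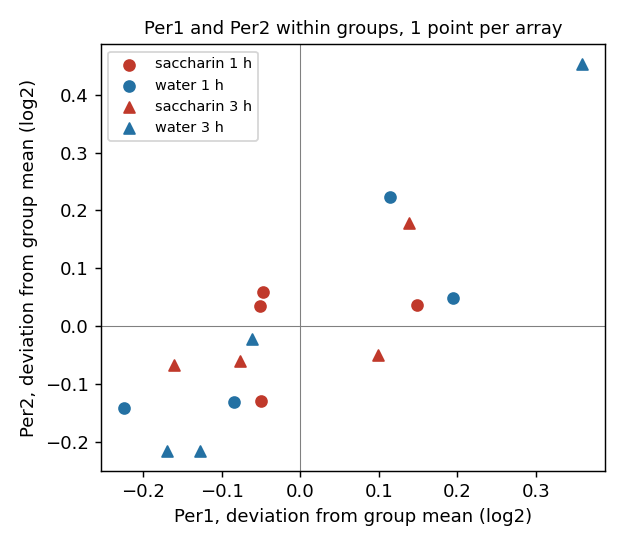
Deviation of Per2 (vertical axis) against that of Per1 (horizontal axis) from the mean of its own group, in log2 units, with 1 point per array and the group shown by the marker. The 16 points have r = 0.84, and the array farthest to the upper right is C365 of water 3 h.

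Of the other 9 pairs none passed the adjustment. The lowest values were those of Per3 with the cryptochromes. For Per3 and Cry1 r was -0.58 (permutation p = 0.03597, adjusted p = 0.1199) and rho -0.61 (permutation p = 0.02775, adjusted p = 0.1387). For Per3 and Cry2 r was -0.67 (permutation p = 0.02504, adjusted p = 0.1199) and rho -0.59 (permutation p = 0.05752, adjusted p = 0.1917). The remaining 7 pairs had r between -0.31 and 0.26. Per1 and Per3 were among them, with r = 0.17, and so were Per2 and Per3, with r = 0.22.

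The probe sets whose pattern over all 16 arrays was most like that of each member were also listed, 4 for each, as a description without a test. For Per1 they were Chrm4, the muscarinic M4 acetylcholine receptor (r = 0.98), Sik1, a salt-inducible kinase (r = 0.96), and the activity-regulated genes Arc (r = 0.95) and Fos (r = 0.95). All 4 were higher at 1 h over both tastes, by 0.41 for Chrm4, 0.74 for Sik1, 1.51 for Arc and 1.18 for Fos (limma adjusted p between 8.56e-06 and 0.000158). As these 4 were picked for likeness to Per1, which itself differed over time, their direction and p-values follow largely from that choice. After group means were removed the likeness to Per1 was 0.91 for Chrm4, 0.75 for Sik1, 0.80 for Arc and 0.66 for Fos. For Per2 they were the immediate early transcription factors Egr1 (r = 0.86), Nr4a3 (r = 0.83) and Egr2 (r = 0.82) and the immediate early gene Ier5 (r = 0.84), with r of 0.76 to 0.81 within groups. Of these Ier5 passed over time (0.32, adjusted p = 0.037), while Egr1 (0.25, adjusted p = 0.183), Nr4a3 (0.26, adjusted p = 0.0599) and Egr2 (0.50, adjusted p = 0.0689) did not.

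None of the likest probe sets of Per3, Cry1 or Cry2 was called over time, where 1.01% of all tested probe sets were. They were picked for likeness to genes that were not called, so this follows in part from the choice. Per3 was most like Pdlim7 (r = 0.88), B3gnt6 (0.86), Myo7a (0.83) and Stx17 (0.77). Cry1 was most like Mme (0.83), the neprilysin gene, followed by Cmpk1 (0.80), Trmt61a (0.79) and Edn1 (0.78). Cry2 was most like Sarm1 (0.91), Nedd4 (0.86), Axin1 (0.85) and Retreg3 (0.83). The 4 nearest genes of each member were chosen from 15209 probe sets, so high values of r are in part the product of that choice.

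The partners of the Per and Cry genes in the clock were measured for 13 of 18 listed genes. Over both tastes 4 of the 13 were called higher at 1 h and 0 lower, where 0.723% and 0.283% of all tested probe sets were. Of the 13, 11 had a positive difference. The median difference of the 13 was 0.08, whereas over all tested probe sets the median was close to 0 and 7603 of 15209 were positive. Bhlhe40 (DEC1), which competes for E-boxes, had means of 9.53 ± 0.12 in saccharin 1 h, 9.02 ± 0.17 in saccharin 3 h, 9.46 ± 0.13 in water 1 h and 9.13 ± 0.18 in water 3 h (SD, n = 4), a difference of 0.42 (1.34-fold, limma adjusted p = 0.00242). Nr1d1 (REV-ERB alpha), which represses Bmal1, had means of 8.69 ± 0.14, 8.40 ± 0.11, 8.69 ± 0.10 and 8.38 ± 0.04 in the same order, a difference of 0.30 (adjusted p = 0.00495). Its relative Nr1d2 (REV-ERB beta), also a repressor, differed by 0.12 and was not called (unadjusted p = 0.0024, limma adjusted p = 0.116).

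Nfil3 (E4BP4), which opposes the activators that bind D-boxes, was 0.28 higher at 1 h (adjusted p = 0.0212), and Bhlhe41 (DEC2), the relative of Bhlhe40, was 0.23 higher (adjusted p = 0.0265). The calls of Bhlhe40 and Nr1d1 held in all 25 alternatives that kept the adjusted threshold. That of Nfil3 held in 20 of 24 and that of Bhlhe41 in 17 of 25. The study's cut-off, counted apart, was met over both tastes by Bhlhe40 (1.34-fold) but not by Nr1d1 (1.23-fold), Nfil3 (1.21-fold) or Bhlhe41 (1.17-fold). With the leptomeningeal marker mean as a covariate Nfil3 differed by 0.22 and was not called (adjusted p = 0.374), while Bhlhe40 (0.54), Nr1d1 (0.36) and Bhlhe41 (0.32) were (adjusted p = 0.00311, 0.0146 and 0.0173). Nfil3 was also lost without C372 (adjusted p = 0.0524), and Bhlhe41 without C366, C367, C368, C370, C374 or C376 (adjusted p = 0.0519 to 0.0583). After saccharin alone Bhlhe40 (0.52, adjusted p = 0.0122) and Nfil3 (0.40, adjusted p = 0.0359) were called, and these calls were lost in 5 of 26 alternatives for Bhlhe40 and in 12 of 25 for Nfil3. Arrays whose omission ended the call of Bhlhe40 were C366, C368, C375 and C380 (adjusted p = 0.054 to 0.0652), and for Nfil3 they were C366, C370, C372, C375 and C377 to C380 (adjusted p = 0.0508 to 0.146). After water alone 0 of 13 were called by limma. Before adjustment 5 of 13 passed as higher at p under 0.05, where 558 of all 15209 tested probe sets did. Between the tastes 0 of 13 were called, and 0 had an unadjusted p under 0.05 at 1 h or at 3 h.

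The activators of the loop gave small differences over both tastes. Clock differed by -0.01 (adjusted p = 0.959) and Bmal1 by 0.08 (adjusted p = 0.658), and Npas2, a relative of Clock that can stand in for it in forebrain, by -0.09 (unadjusted p = 0.0321, adjusted p = 0.348). Dbp, an output gene of the clock that binds D-boxes, differed by 0.14 (adjusted p = 0.443), with 0.02 after saccharin and 0.26 after water (unadjusted p = 0.017, limma adjusted p = 0.557).

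**Figure D4:**
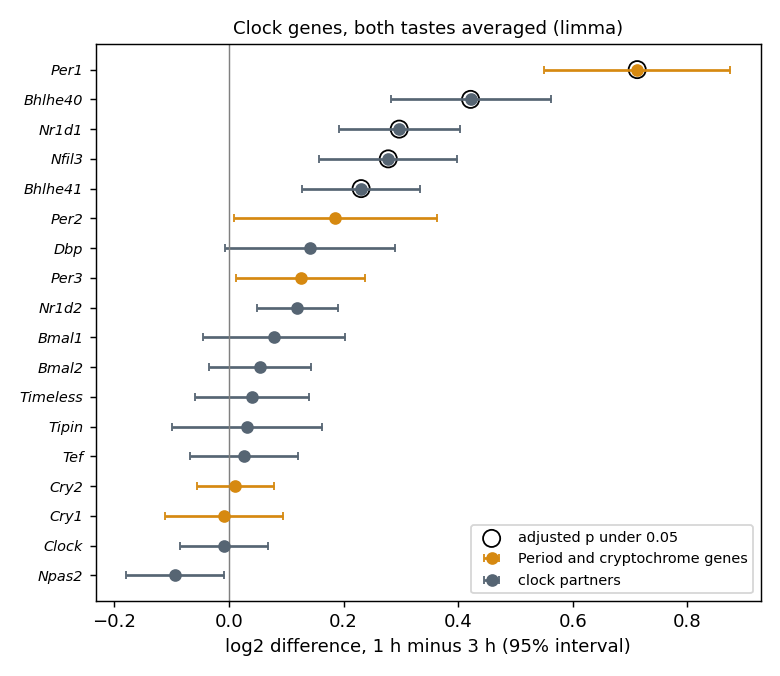
Log2 difference between 1 h and 3 h, both tastes averaged, with its 95% limma interval, for the 5 Period and cryptochrome genes and the 13 measured clock partners, with called genes circled. Per1 has the largest difference of the 18 (0.71), followed by Bhlhe40 (0.42) and Nr1d1 (0.30).

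Enzymes that phosphorylate PER and CRY proteins or act on their stability were measured for 14 of 16 listed genes. Over time 0 of the 14 were called, with a median difference of -0.02 and 4 of 14 positive. Before adjustment 1 passed as lower, where 5.77% of all tested probe sets did. The smallest p-values belonged to Prkaa2, a catalytic subunit of the AMP-activated kinase that phosphorylates CRY1 (-0.10, adjusted p = 0.394), Usp2, a deubiquitinating enzyme (-0.07, adjusted p = 0.633), and Btrc, part of the ligase that marks PER proteins for degradation (-0.05, adjusted p = 0.633).

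Genes induced by glucocorticoids, which also raise Per1 in many tissues, were measured for 14 of 15 listed genes. Over both tastes 0 of the 14 were called by limma, 11 were positive, the median difference was 0.06, and before adjustment 4 passed as higher and 1 as lower, where 6.25% and 5.77% of all tested probe sets did. After saccharin 6 passed as higher and 0 as lower before adjustment (median 0.14, 12 positive), and after water 1 as higher and 1 as lower (median 0.02, 8 positive). Of all 15209 tested probe sets, 693 passed as higher and 521 as lower after saccharin, and 558 and 541 after water. By limma 0 of the 14 were called in either taste. Those with the smallest p-values were Tsc22d3 (GILZ) at 0.18 (adjusted p = 0.0584), Mertk at 0.18 (adjusted p = 0.0604) and Zbtb16 at -0.17 (adjusted p = 0.131). Tsc22d3 and Mertk each passed in 6 of 25 alternatives. Between the tastes 0 of the 14 were called. Before adjustment 1 passed as higher at 1 h and 0 at 3 h, where 192 and 203 of all tested probe sets did.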

How the data were processed

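Biotinylated cRNA made from total RNA of the gustatory cortex was hybridised to 16 Affymetrix RaGene 1.1 ST v1 arrays, 1 per rat. The authors processed the raw files with affy (version not given in the sources used here), quantile normalized the probe signals over all arrays and derived 1 RMA value for each probe set; the deposited log2 values were used as they are. RMA values tend to compress fold changes, and the number of arrays limits the precision. No deposited column was left unused (0), and none held comparisons of the authors. Probe sets were named from the array annotation: 15209 have 1 gene and were tested, 306 have several and 13311 have no entry. Symbols were updated by gene ID through RefSeq (GRCr8) for 15178. The study chose probe sets by its own alignment, a step that this annotation replaced.

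Group means were fitted with limma 3.58.1 (R 4.3.3) over all 16 arrays and 15209 probe sets, with 1 shared estimate of spread and Benjamini-Hochberg adjustment. Exact permutation tests and correlations used Python 3.11.15 and SciPy 1.17.1, with 100000 permutations within groups for correlations over 16 arrays. The limma step was tested on simulated data. The rule for named genes took all 5 members, from each list the genes called over time or else the 3 with the smallest p-values, and the 4 probe sets most like each member; other genes of the clock and marker lists were named after their values were seen. The members, lists and tests were chosen with earlier results of these data known. Marker lists of astrocytes, oligodendrocytes, microglia, endothelium and striatum were also examined, and 0 of their genes were called over time. At an unadjusted p under 0.05 over both tastes, 1 of 5, 0 of 4, 2 of 6, 2 of 4 and 3 of 7 were lower at 1 h. Of all tested probe sets 5.77% were lower at this threshold. Alternatives were other sets of probe sets, normalizations, priors, weights and thresholds, a covariate, and each array left out.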

Additional observations from a re-analysis of the deposited data

Results flagged for a closer look

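In each of the 20 sets of 4 arrays (5 genes in 4 groups), the array farthest from the others was examined by Dixon's criterion, which chance exceeds in about 1 of 20 such groups. It was exceeded in 3 of the 20, all in saccharin groups. In saccharin 1 h, Per1 was 7.26 on array C380 while the other 3 arrays lay at 7.06, so the gap took up 0.983 of the range of the group. Per2 was 6.45 on array C375 of saccharin 1 h, below the other 3 arrays at 6.61 to 6.64 (gap of 0.876 of the range). Per2 was 6.47 on array C372 of saccharin 3 h, above the other 3 at 6.23 to 6.24 (gap of 0.929 of the range). On C372 Per1 was also the highest of its group, at 6.42. The calls of Per1 over time after saccharin and over both tastes held without any of these arrays. A difference between the tastes in the change over time was not shown for any of the 5 genes.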

How the results depend on the processing

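With each alternative, 1 member (Per1) was called over both tastes and after saccharin. After water the count fell from 1 to 0 with all probe sets tested, with least squares without moderation, with array weights and with only the 8 arrays compared (adjusted p of Per1 between 0.0503 and 0.217), and ran from 0 to 1 with each array left out; without C365 the adjusted p was 0.00107. The counts of all probe sets called ran from 34 to 218 over both tastes, 29 to 114 after saccharin and 3 to 87 after water. These ranges include the study's cut-off, which uses an unadjusted p and gave the 114 and the 87. With each array left out, at the adjusted threshold, they were 93 to 168, 42 to 66 and 8 to 28. Of the clock partners, 2 were called over both tastes with all probe sets and with least squares, and 1 by the study's cut-off. After saccharin 1 was called with all probe sets, without the dimmest 50%, with array medians subtracted and with the marker covariate, 0 with least squares, and 0 to 2 with an array left out. After water 1 was called by the study's cut-off. The cause of these losses was not tested. The r of Per1 and Per2 ran from 0.69 to 0.88 with an array left out and was 0.84 with array medians subtracted and 0.86 after a repeated quantile normalization.

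Every change of direction was in a difference that was not called. With array medians subtracted, Cry2 between tastes at 1 h was 0.005546. With array weights, Cry1 over both tastes was 0.00442, Cry2 between tastes at 1 h 0.00382, Cry1 between tastes at 3 h 0.0003091 and the interaction of Per3 0.02115. With the marker covariate, Cry2 over both tastes was -0.01356, Cry1 after saccharin -0.05748, Cry1 between tastes at 3 h 0.01882 and the interaction of Per3 0.01255. With each array left out, differences that changed sign ran from -0.02945 to 0.02118 for Cry1 and -0.004538 to 0.02367 for Cry2 over both tastes, -0.01056 to 0.0907 for Cry1 after saccharin, -0.02574 to 0.02476 for Cry2 at 1 h and -0.06464 to 0.03869 for Cry1 and -0.1925 to 0.03076 for Per2 at 3 h by taste, -0.05412 to 0.04301 for Per1 and -0.05826 to 0.05336 for Per2 by taste over both times, and -0.08165 to 0.03153 for the interaction of Per3. No paired analysis was possible because the groups share no replicate numbers.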
